A study of Homo sapiens with 18 samples.

Results

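The cell cycle machinery of human embryonic stem cells (hESCs) outside the replicative helicase is described here through 40 genes. They were chosen by name and taken as the rows of the deposited expression table that carry their Entrez gene identifiers, and all 40 were found among the 23536 features of the table. They comprise 5 D cyclins and their kinases, 5 genes of the transition from G1 to S phase, 8 genes of replication licensing and DNA synthesis, 4 genes of inhibitors of cyclin-dependent kinases (CDKs) and their regulator WEE1, 10 genes of mitotic entry, 6 genes of the spindle checkpoint and mitotic exit, and 2 proliferation markers. The hESC lines H9, HS360 and HS401 were cultured without feeder cells on Matrigel in mTeSR1 medium and kept in normoxia (21 % O2) or hypoxia (4 % O2) for 2 h, 24 h or 7 d. RNA of each culture was measured on 1 exon array, which gave 18 arrays in 6 groups of 3, with 1 culture of each line in every group, so that the replicates of a group are the lines. The 2 h and 24 h cultures had grown in normoxia before the exposure and were of about the same age at harvest, while the 7 d cultures were older, so in comparisons with 7 d the time at an oxygen level and the age of the culture cannot be told apart. Stock cultures had been kept on human foreskin fibroblasts.

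A dividing cell passes from G1 through DNA synthesis (S phase) and G2 into mitosis, driven by cyclins that activate CDKs. D cyclins with CDK4 and CDK6 and then E cyclins with CDK2 open S phase, whereas cyclin A and cyclin B with CDK1 drive the later steps, and inhibitors such as p21 (CDKN1A) and p27 (CDKN1B) hold CDKs back. hESCs are known for a short G1 phase and rapid division. Many S phase genes are read through E2F sites in their promoters, and many mitotic genes through CCAAT boxes and a cell cycle homology region (CHR) near the start of transcription.

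The promoters of 4 genes whose level differed between 7 d and 2 h are shown with their matches to these elements: 3 genes that were higher at 7 d, PLK1, CDC20 and CCNB2, and 1 that was lower, CDC25A. They were taken because they passed that test and have a single start in the RefSeq table (build GRCh38.p14), not for their matches, and each window holds 250 bases before and 50 bases after the start. Capitals mark matches on either strand to the CCAAT box (CCAAT, or ATTGG where it lies on the opposite strand), the CHR (TTTGAA or TTCGAA, or TTCAAA where it lies on the opposite strand) and the E2F site (TTTCCCGC, TTTCGCGC, TTTGCCGC or TTTGGCGC). None of the matches in these windows overlap.
PLK1, chr16:23678639-23678938, plus strand: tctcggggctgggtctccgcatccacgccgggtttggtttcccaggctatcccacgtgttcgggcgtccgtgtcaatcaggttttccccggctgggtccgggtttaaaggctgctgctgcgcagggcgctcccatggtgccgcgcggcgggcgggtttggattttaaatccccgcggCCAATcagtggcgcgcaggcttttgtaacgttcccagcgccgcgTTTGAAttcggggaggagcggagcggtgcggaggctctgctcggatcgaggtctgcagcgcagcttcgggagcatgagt
CDC20, chr1:43358731-43359030, plus strand: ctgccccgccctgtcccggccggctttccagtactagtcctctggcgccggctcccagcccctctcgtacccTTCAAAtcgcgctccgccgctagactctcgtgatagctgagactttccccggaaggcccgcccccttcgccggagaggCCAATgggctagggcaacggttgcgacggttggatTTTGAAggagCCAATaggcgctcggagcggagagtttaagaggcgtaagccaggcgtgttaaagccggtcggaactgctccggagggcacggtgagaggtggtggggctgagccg
CCNB2, chr15:59104896-59105195, plus strand: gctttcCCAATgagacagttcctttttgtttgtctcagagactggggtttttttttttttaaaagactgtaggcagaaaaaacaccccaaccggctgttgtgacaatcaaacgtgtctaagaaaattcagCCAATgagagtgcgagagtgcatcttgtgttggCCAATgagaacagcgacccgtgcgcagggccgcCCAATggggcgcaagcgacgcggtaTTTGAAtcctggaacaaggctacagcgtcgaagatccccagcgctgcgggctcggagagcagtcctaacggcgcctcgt
CDC25A, chr3:48188368-48188667, minus strand: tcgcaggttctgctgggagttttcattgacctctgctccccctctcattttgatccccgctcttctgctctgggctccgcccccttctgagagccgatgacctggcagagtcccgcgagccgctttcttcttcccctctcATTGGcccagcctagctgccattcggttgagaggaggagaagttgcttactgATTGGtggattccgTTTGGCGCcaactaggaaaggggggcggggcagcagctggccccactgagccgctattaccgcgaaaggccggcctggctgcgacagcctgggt
PLK1 holds 1 CCAAT box starting at position -73 and a CHR at -29 from the start, and CCNB2 holds 4 CCAAT boxes, the nearest at -54, with a CHR also at -29. CDC20 holds CCAAT boxes at -100 and -55, a CHR at -65 between them and a reversed CHR at -178, and CDC25A holds reversed CCAAT boxes at -110 and -58 and an E2F site at -44.

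The same search was made in all windows of the table. Of the 40 genes, 30 had 1 or more windows there (46 windows); CCND1, CCND2, CCNE2, CDK2, CDKN1C, WEE1, FOXM1, AURKA, TTK and BIRC5 are named only. A CCAAT box was found in 23 of the 30 genes (76.7%, against 39.7% of all 27303 genes of the table), a CHR in 12 (40%, against 19.5%) and an E2F site in 8 (26.7%, against 3.99%). By window, the shares were 67.4%, 30.4% and 19.6% of the 46 member windows, against 34.6%, 16.4% and 3.32% of all 35091 windows. All 4 genes of the spindle checkpoint and mitotic exit, 5 of 8 mitotic entry genes and both proliferation markers held a CHR. The E2F site was found in 5 of 8 genes of replication licensing and DNA synthesis, in 2 of 3 genes of the G1 to S transition and in 1 of 8 mitotic entry genes. A match describes letters in the window and does not show that a factor binds there.

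Levels are given as log2 intensities of the deposited array values, which can be compared between arrays for 1 gene but not between genes. Of the 40 genes, 36 lay above the median of their array on all 18 arrays. Among hESC markers, 10 of 11 lay above the array median on every array and POU5F1 did on 11 arrays. The medians of the arrays lay between 132 and 161 in linear intensity. On 5 arrays (HS401 in normoxia at 2 h and 24 h and in hypoxia at 24 h, and H9 in hypoxia at 2 h and 24 h) the log2 lower quartile lay at 5.64 to 5.70, against 5.89 to 6.17 on the other 13. Fibroblast markers differed in level: COL1A1 and COL1A2 lay above the array median on all 18 arrays, LUM on 7 and FAP on 8. The summed intensity of the 14 markers was 15213 to 27032 at 2 h and 7804 to 14327 at 7 d. The strongest markers weigh most in that sum. Of the 14 markers, 12 fell between 2 h and 7 d at an adjusted p under 0.05 (limma), as 4.14% of all features did. In such bulk samples fewer cells of a type and less RNA per cell cannot be told apart. Of 8 genes known to respond to low oxygen, 7 were higher in hypoxia over the mean of the 3 times (limma, adjusted p under 0.05). In either direction 0.11% of all features passed. DDIT4 had a log2 difference of 1.53 ± 0.17 (SE, adjusted p = 0.00197, limma) and the glucose transporter SLC2A1 one of 0.77 ± 0.08 (adjusted p = 0.00197). The study had reported DDIT4, PDK1, BHLHE40, PFKFB4, HK2 and INSIG2, all in this list, as raised at every time on these same arrays. The list is therefore not an independent check of the treatment.

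**Figure D1:**
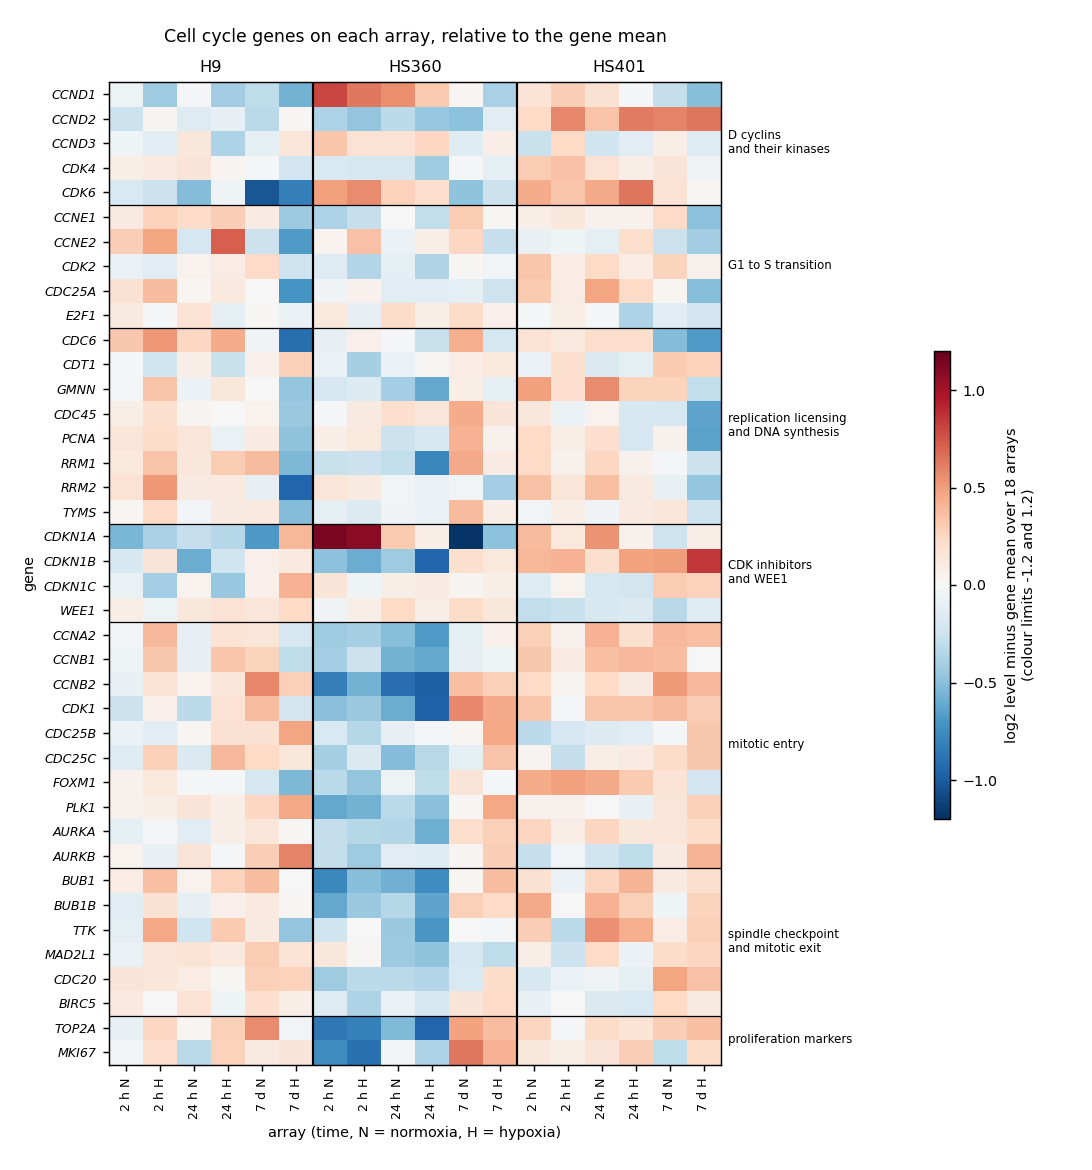
Log2 level of each of the 40 genes (rows, by role) on each of the 18 arrays (columns, by line, time and oxygen level) minus the mean of that gene over all arrays, in colour. HS360 is blue for most mitotic genes at 2 h and 24 h and less so at 7 d, and the genes of replication licensing and DNA synthesis are bluest in the 7 d hypoxia cultures of H9 and HS401.

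The first question was whether 4 % O2 changed the cell cycle genes. None of the 40 genes passed the adjusted threshold of 0.05 at 2 h, 24 h or 7 d or over the mean of the 3 times (limma with the line as a block, Benjamini-Hochberg over all 23536 features), and none passed the thresholds used in the study (unadjusted p under 0.01 with a fold over 1.5), which 0.085%, 0.421%, 0.867% and 0.183% of all features did. Over all features the shares past the adjusted threshold were themselves small, at 0%, 0.00425%, 0.0212% and 0.11%. At an unadjusted p under 0.05 the counts were 0 of 40 at 2 h (0.782% of all features), 2 of 40 at 24 h (2.7%), 9 of 40 at 7 d (7.1%) and 7 of 40 over the mean of the times (4.3%). Of the 9 at 7 d, 7 were lower (3.71% of all features) and 2 higher (3.39%). Across the 40 genes the 95% intervals of the differences reached from -0.87 to 0.78 at 2 h and from -1.09 to 1.53 at 7 d on the log2 scale.

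At 7 d no gene of DNA synthesis or of the G1 to S transition passed the adjusted threshold, and most had negative oxygen differences. The arrays themselves differed at 7 d: their log2 lower quartile lay at 5.89 to 5.98 in normoxia and at 5.99 to 6.09 in hypoxia, without overlap. The part of this shift in the differences was not tested. In the group of replication licensing and DNA synthesis 7 of 8 genes were lower in all 3 lines and 5 had an unadjusted p under 0.05, all of them lower. In the G1 to S group 5 of 5 were lower in all 3 lines and 2 had an unadjusted p under 0.05. CCNE2, counted among the 5, had a low signal that is described below. In all, 17 of the 40 genes were lower in all 3 lines, where 14.2% of all features were, and 5 were higher in all 3, where 25% of all features were. The median log2 difference was -0.48 for replication licensing and DNA synthesis, -0.37 for the G1 to S group, -0.03 for mitotic entry, -0.02 for the spindle checkpoint and mitotic exit, and 0.06 over all features. The G1 to S median is the value of CCNE2 itself.

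RRM2, the small subunit of the ribonucleotide reductase that makes deoxynucleotides, was at 8.50, 8.57 and 8.51 at 7 d in normoxia in H9, HS360 and HS401, and at 7.65, 8.19 and 8.13 in hypoxia. The 3 hypoxia values lay below the 3 normoxia values, the lowest in H9, with a log2 difference of -0.54 ± 0.16 (SE, n = 3 lines), unadjusted p = 0.00444 in limma and adjusted p = 0.442. PCNA, the sliding clamp of the DNA polymerases, was at 9.81, 10.13 and 9.76 in normoxia and at 9.23, 9.76 and 9.07 in hypoxia. It was lower in each line, but HS360 in hypoxia equalled HS401 in normoxia, and the difference was -0.55 ± 0.17 (adjusted p = 0.477). TYMS, which makes thymidylate, was at 9.42, 9.68 and 9.45 in normoxia and at 8.78, 9.38 and 9.05 in hypoxia, without overlap and with a difference of -0.45 ± 0.15 (adjusted p = 0.513).

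Among the genes that prepare origins, CDC6, which loads the helicase, was at 9.49, 9.97 and 9.01 in normoxia and at 8.63, 9.32 and 8.85 in hypoxia. The groups overlapped because HS401 was low at both oxygen levels, and the difference was -0.56 ± 0.25 (adjusted p = 0.689). CDC45, which completes the active helicase, was at 8.43, 8.84 and 8.18 in normoxia and at 7.95, 8.55 and 7.76 in hypoxia. The lines differed more than the oxygen levels here, and the difference was -0.40 ± 0.16 (adjusted p = 0.619). The large reductase subunit RRM1 and the licensing inhibitor GMNN were also lower in each line, while CDT1, the licensing factor that GMNN binds, was not, being 0.23 higher in hypoxia in H9, 0.04 higher in HS360 and 0.04 lower in HS401.

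Of the G1 to S genes, CCNE1 (cyclin E1) was at 8.59, 8.80 and 8.73 in normoxia at 7 d and at 8.06, 8.51 and 8.0 in hypoxia, without overlap. The difference was -0.52 ± 0.19 (SE, adjusted p = 0.543). CDC25A, the phosphatase that activates CDK2, was at 8.39, 8.28 and 8.41 in normoxia and at 7.67, 8.14 and 7.88 in hypoxia, also without overlap, at -0.46 ± 0.16 (adjusted p = 0.532). In all, 8 of the 40 genes had every hypoxia array below every normoxia array at 7 d (CCND1, CDK4, CCNE1, CCNE2, CDC25A, GMNN, RRM2 and TYMS), where 4.03% of all features did, and 2 had every hypoxia array above (CDC25B and PLK1), where 10.7% did. The 8 include CCNE2 with the low signal described next.

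The other cyclin E gene, CCNE2, had a low signal. It lay below the array median on every array and below the lower quartile of its own array on 16 of the 18, the exceptions being the hypoxia arrays of H9 at 2 h and 24 h, so its signal is not shown to be above background. Both exceptions are among the 5 arrays with a low lower quartile, at 5.67 (2 h) and 5.64 (24 h). In H9 in normoxia the lower quartile was 5.93 and 5.99. The part of this mismatch in the H9 values was not tested. CCNE2 was at 5.20, 5.33 and 5.29 in normoxia at 24 h in H9, HS360 and HS401 and at 6.12, 5.48 and 5.61 in hypoxia. At 7 d it was at 5.14, 5.65 and 5.14 in normoxia and at 4.72, 5.12 and 4.98 in hypoxia. At 24 h the hypoxia value was the larger in each line, mostly in H9, at a difference of 0.46 ± 0.19 (SE, adjusted p = 1), and at 7 d it was the smaller in each. The oxygen difference at 7 d minus that at 24 h was -0.83 ± 0.27 (SE) by limma, with unadjusted p = 0.00745 and adjusted p = 0.901; it passed the thresholds used in the study, as 0.433% of all features did, and was the 1 of 40 genes to do so.

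Over the 10 mitotic entry genes the median oxygen difference at 7 d was -0.21 in H9 (7 of 10 negative), 0.13 in HS360 (3 of 10) and 0.02 in HS401 (5 of 10), and no test compared these genes with those of DNA synthesis. CDC25B, a phosphatase that activates CDK1 at mitotic entry, was at 8.07, 7.91 and 7.87 in normoxia at 7 d and at 8.36, 8.35 and 8.21 in hypoxia. Every hypoxia array lay above every normoxia array, with a difference of 0.36 ± 0.10 (SE, unadjusted p = 0.00295, adjusted p = 0.413, limma), the smallest p of the 40 genes at 7 d. AURKB, the kinase of the chromosomal passenger complex, was at 9.73, 9.47 and 9.54 in normoxia and at 10.03, 9.73 and 9.84 in hypoxia, higher by 0.26 to 0.30 in each line but with H9 in normoxia at the level of HS360 in hypoxia. Its difference was 0.29 ± 0.12 (adjusted p = 0.620). PLK1 was also higher in hypoxia in all 3 lines, and CCNB2, CDK1 and FOXM1 were lower in all 3, each without an unadjusted p under 0.05.

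CDKN1A, which encodes the CDK inhibitor p21, was at 8.94, 8.45 and 9.38 in normoxia at 7 d and at 10.03, 9.14 and 9.71 in hypoxia. The pairs differed by 1.09 (H9), 0.69 (HS360) and 0.33 (HS401), and the groups overlapped at HS401 in normoxia. The difference of 0.70 ± 0.38 (SE) had an adjusted p of 0.771 and a 95% interval from -0.12 to 1.53. CDKN1B and CDKN1C, which encode p27 and p57, and WEE1, the kinase that restrains CDK1, had differences of 0.07 to 0.12.

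**Figure D2:**
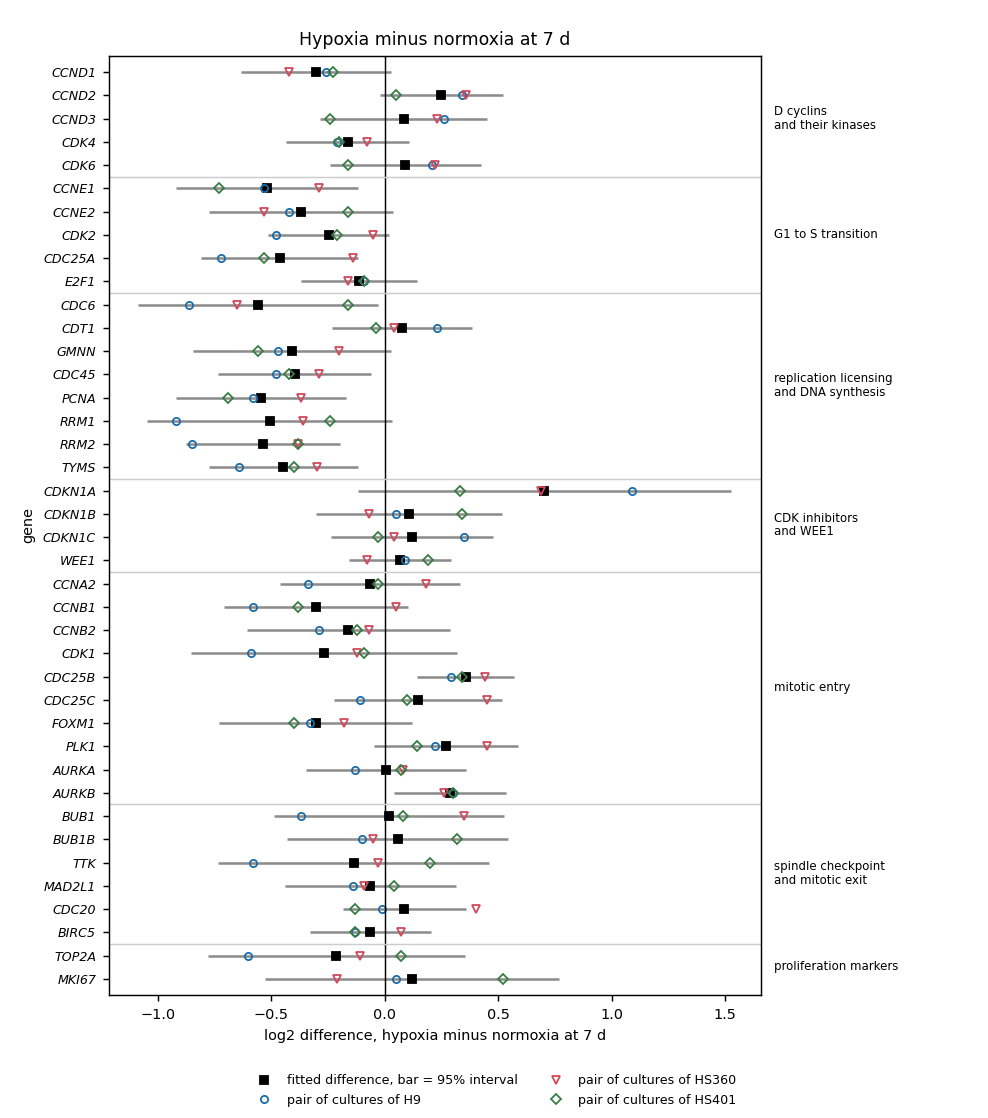
Hypoxia minus normoxia at 7 d on the log2 scale for each of the 40 genes, by role, with open symbols for the pair of cultures of each line and filled squares with bars for the fitted difference and its 95% interval. The symbols of all 3 lines lie left of 0 for all 5 genes of the G1 to S transition and for 7 of 8 genes of replication licensing and DNA synthesis, and right of 0 for CDC25B and AURKB.

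Fibroblast markers moved with these values in 2 of the 3 lines. Their mean log2 level at 7 d was 8.17 in normoxia and 8.77 in hypoxia in H9, and 8.16 and 8.78 in HS401, and 12 of the 14 were higher in hypoxia in the fit, with a median of 0.42. In HS360 the mean was 8.08 in normoxia and 7.93 in hypoxia, and there the median oxygen difference of the replication genes was -0.33 with 7 of 8 genes lower, against -0.61 in H9 and -0.39 in HS401. With the mean fibroblast marker level added as covariate, a setting chosen after the values were seen, the difference at 7 d was -0.44 for RRM2, -0.43 for PCNA, -0.31 for TYMS and 0.38 for CDC25B, and none of the 40 genes passed the adjusted threshold. The part of these markers' cells in the differences was not tested.

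Other S phase genes, listed apart from the 40, lay on the same side. Of 34 measured, 33 had a negative oxygen difference at 7 d and 20 were lower in all 3 lines, with a median of -0.23; 38.2% of all features had a negative difference. None passed the adjusted threshold, and 4 had an unadjusted p under 0.05, as 7.1% of all features did. The RFC3 gene of the clamp loader had the lowest difference, at -0.62 ± 0.20 (SE, adjusted p = 0.488 by limma). Of 39 other mitotic genes 23 were negative, with a median of -0.08. Of 15 targets of p53 measured beside CDKN1A 11 lay above 0 and the median was 0.20. Over all 23536 features 14416 lay above 0, with a median of 0.06.

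At 2 h the oxygen differences of the 40 genes lay between -0.16 and 0.18, with a median of 0.02. At 24 h they lay between -0.28 and 0.46, with a median of -0.07 against -0.03 over all features. Only CCNE2 had hypoxia arrays wholly above the normoxia arrays at 24 h, where 1.63% of all features did, and no gene had them wholly below (1.01%). E2F1, the activator of S phase genes, was the other gene with an unadjusted p under 0.05 at 24 h, at -0.26 ± 0.12 (SE, adjusted p = 1 in limma).

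Over the mean of the 3 times, each oxygen level was represented by 9 arrays in 9 pairs of cultures. CCND1 (cyclin D1) ranged from 9.80 to 10.90 in normoxia, with a median of 10.13, and from 9.54 to 10.74 in hypoxia, with a median of 9.71. It was lower in hypoxia in 8 of 9 pairs, by -0.24 ± 0.09 (SE, unadjusted p = 0.0181, adjusted p = 0.919, limma). CDK2, the partner of cyclin E, ranged from 8.49 to 8.98 (median 8.69) in normoxia and from 8.29 to 8.74 (median 8.61) in hypoxia. It too was lower in 8 of 9 pairs, by -0.17 ± 0.07 (adjusted p = 0.9997). PCNA ranged from 9.45 to 10.13 (median 9.86) in normoxia and from 9.07 to 9.93 (median 9.63) in hypoxia, lower in 6 of 9 pairs. Of the 7 genes with an unadjusted p under 0.05, CCND2 and CDC25B had positive differences. CDC25B was at 0.14 ± 0.06 (SE, unadjusted p = 0.0321, adjusted p = 0.9997, limma) and was higher in hypoxia in 7 of 9 pairs. In the other groups the genes with the largest absolute difference were CDKN1A at 0.13 ± 0.22, CDC25C (a mitotic phosphatase) at 0.17 ± 0.10, MAD2L1 (a spindle checkpoint protein) at -0.09 ± 0.10 and MKI67 (the antigen Ki-67) at 0.09 ± 0.17. CDC25C was higher in 7 of 9 pairs, MAD2L1 lower in 7, and CDKN1A and MKI67 were split 4 to 5 and 5 to 4. No gene of the 40 showed an oxygen effect that differed between the lines at an unadjusted p under 0.05 (F test in limma), as 1.59% of all features did.

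The second comparison was between 7 d and 2 h over both oxygen levels, with 6 arrays at each time. These are a normoxia and a hypoxia culture of each of the 3 lines. The cultures of a line share that line's course over time, so only 3 independent units carry this comparison. The fit removes only the constant difference between the lines, and its p-values count the cultures of a line separately. The counts over 6 pairs given below likewise come from 3 lines. Of the 40 genes 9 passed the adjusted threshold (8.86% of all features did). The 5 that rose act in mitosis, namely CCNB2, CDC25B, PLK1, AURKB and CDC20 (4.72% of all features rose), and the 4 that fell act in G1 or S phase, namely CDK6, CCND1, CDC25A and RRM2 (4.14% fell). By role, 4 of 10 mitotic entry genes and 1 of 6 genes of the spindle checkpoint and mitotic exit rose, and 2 of 5 D cyclins and kinases, 1 of 5 G1 to S genes and 1 of 8 replication genes fell. The median difference was 0.37 for mitotic entry, 0.25 for the spindle checkpoint and mitotic exit and -0.18 for replication licensing and DNA synthesis, against 0.10 over all features.

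CCNB2, the gene of cyclin B2, was at 8.99, 8.25 and 9.32 at 2 h in normoxia in H9, HS360 and HS401 and at 9.25, 8.51 and 9.11 at 2 h in hypoxia. At 7 d it was at 9.66, 9.44 and 9.59 in normoxia and at 9.37, 9.37 and 9.47 in hypoxia. Every 7 d array lay above every 2 h array, and the 2 HS360 arrays at 2 h were the lowest. The rise was 0.58 ± 0.15 on the log2 scale (SE, 1.49-fold, adjusted p = 0.0253, limma). CDC25B was at 7.82, 7.71 and 7.58 at 2 h in normoxia and at 7.76, 7.55 and 7.69 in hypoxia, below all of its 7 d values given above. It rose by 0.44 ± 0.07 (1.36-fold, adjusted p = 0.00184).

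AURKB was at 9.48, 9.15 and 9.16 at 2 h in normoxia and at 9.35, 9.01 and 9.40 in hypoxia, and its 7 d values overlapped these only at HS360 in normoxia, 9.47. It rose by 0.47 ± 0.08 (SE, adjusted p = 0.00329 in limma). PLK1, the polo-like kinase of mitotic entry, was at 10, 9.33 and 10 at 2 h in normoxia and at 10.03, 9.38 and 10 in hypoxia. At 7 d it was at 10.19, 9.96 and 10.09 in normoxia and at 10.41, 10.41 and 10.23 in hypoxia. HS360 was low at 2 h and reached the other lines at 7 d, and the rise over the lines was 0.43 ± 0.11 (adjusted p = 0.0218). CDC20, the activator of the anaphase-promoting complex, was at 10.14, 9.56 and 9.79 at 2 h in normoxia and at 10.13, 9.67 and 9.91 in hypoxia. At 7 d it was at 10.27, 9.80 and 10.46 in normoxia and at 10.26, 10.20 and 10.33 in hypoxia, higher in 6 of 6 pairs and by 0.35 ± 0.09 (adjusted p = 0.0253). The promoters of PLK1, CDC20 and CCNB2 are those shown above with CCAAT boxes and a CHR.

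CDK6, the kinase partner of D cyclins, was at 8.23, 8.90 and 8.85 at 2 h in normoxia and at 8.15, 8.98 and 8.74 in hypoxia. At 7 d it was at 7.38, 7.93 and 8.58 in normoxia and at 7.59, 8.15 and 8.42 in hypoxia. The groups overlapped because HS401 stayed high, but it was lower in 6 of 6 pairs, and it fell by 0.63 on the log2 scale (SE 0.11, 1.55-fold, adjusted p = 0.00310, limma). CCND1 was at 10.04, 10.90 and 10.27 at 2 h in normoxia and at 9.68, 10.74 and 10.40 in hypoxia. At 7 d it was at 9.80, 10.13 and 9.82 in normoxia and at 9.54, 9.71 and 9.59 in hypoxia, lower in 6 of 6 pairs, and it fell by 0.57 (SE 0.11, adjusted p = 0.00535).

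RRM2 was at 8.77, 8.74 and 8.95 at 2 h in normoxia and at 9.12, 8.71 and 8.74 in hypoxia, and every 7 d array lay below every 2 h array. It fell by 0.58 on the log2 scale (SE 0.11, adjusted p = 0.00583, limma). CDC25A was at 8.57, 8.35 and 8.70 at 2 h in normoxia and at 8.77, 8.44 and 8.48 in hypoxia. It was lower at 7 d in 6 of 6 pairs, with overlap at H9 and HS401 in normoxia, and fell by 0.42 (SE 0.11, adjusted p = 0.0336). Of the 40 genes, 2 had 7 d arrays wholly above the 2 h arrays (1.85% of all features) and 1 had them wholly below (1.5%).

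The genes with the largest absolute difference among the CDK inhibitors and WEE1, the proliferation markers and the G1 to S genes did not pass. CDKN1A ranged from 9.08 to 10.76 at 2 h (median 9.89, n = 6) and from 8.45 to 10.03 at 7 d (median 9.26), and was lower at 7 d in 5 of 6 pairs, at -0.65 ± 0.27 (SE, adjusted p = 0.162, limma). TOP2A, the topoisomerase that untangles chromosomes, ranged from 9.01 to 10.13 at 2 h (median 9.82) and from 9.84 to 10.44 at 7 d (median 10.24), higher in 5 of 6 pairs, at 0.55 ± 0.19 (adjusted p = 0.0831). CCNE2 ranged from 5.31 to 5.87 at 2 h (median 5.57) and from 4.72 to 5.65 at 7 d (median 5.13), at -0.45 ± 0.13 (adjusted p = 0.0527).

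Within the oxygen levels, which share the arrays of the comparison above, CDK6 alone fell in normoxia (-0.70 ± 0.16, SE, adjusted p = 0.0430, limma; 1.21% of all features passed). In hypoxia CDC25B rose by 0.64 ± 0.10 (adjusted p = 0.00629) and AURKB by 0.61 ± 0.12 (adjusted p = 0.0132), and RRM2 (-0.87 ± 0.16, adjusted p = 0.0118), CCND1 (-0.66 ± 0.15, adjusted p = 0.0344) and CDC25A (-0.67 ± 0.16, adjusted p = 0.0393) fell; 3.23% of all features passed. Whether the time difference itself differed between the oxygen levels is the interaction of 7 d and 2 h, which none of the 40 genes passed (adjusted p from 0.997). Between 24 h and 2 h none passed, 1 gene (CDC25B, 0.17 ± 0.07) had an unadjusted p under 0.05, and 1.44% of all features did.

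**Figure D3:**
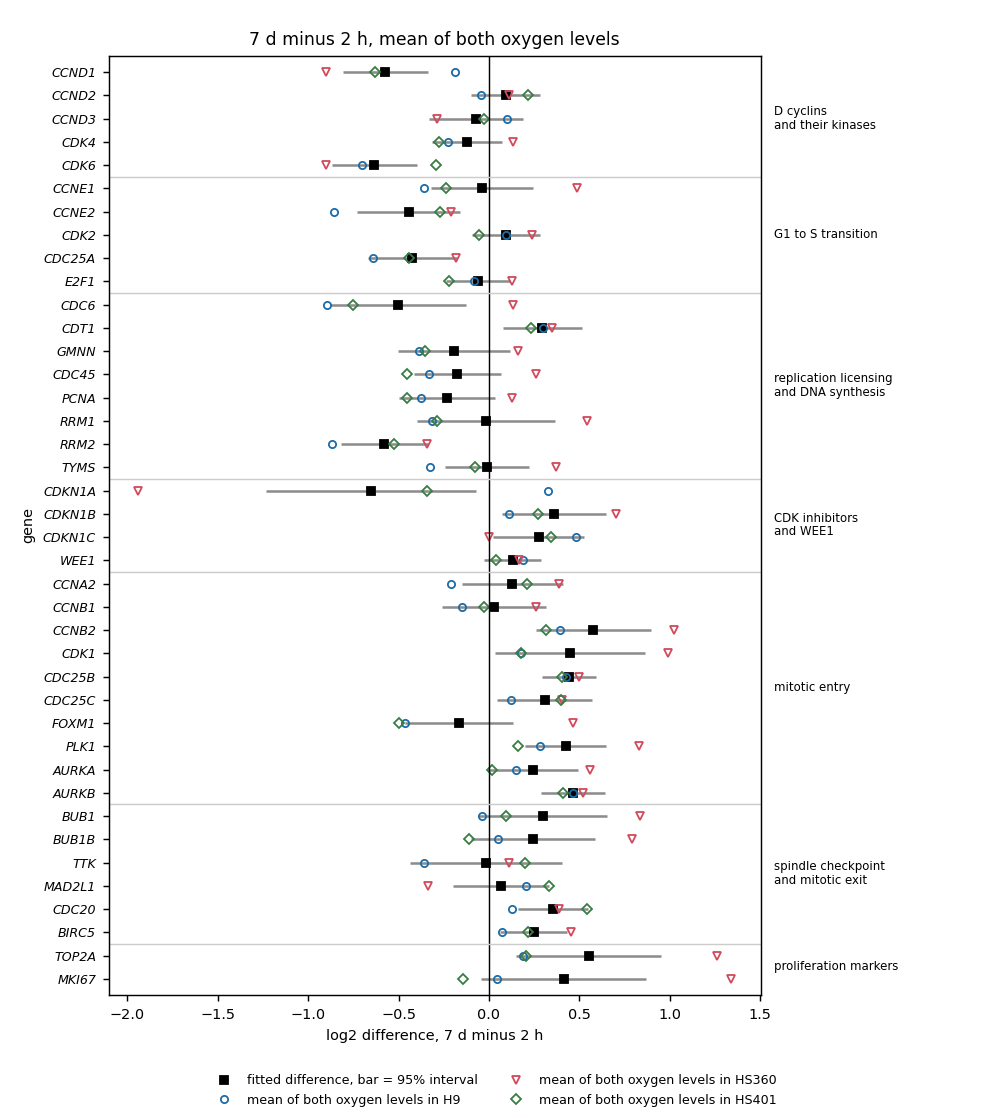
Difference between 7 d and 2 h on the log2 scale for each of the 40 genes, by role, with open symbols for each line (mean of both oxygen levels) and filled squares with bars for the fitted difference and its 95% interval. CCNB2, CDC25B, PLK1, AURKB and CDC20 lie right of 0 and CDK6, CCND1, CDC25A and RRM2 left of 0 with all 3 lines, and HS360 lies far to the right for the proliferation markers and many mitotic genes.

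Without H9 the count of 9 fell to 1, without HS360 to 3, of which none rose, and without HS401 to 3. Without the line as a block 3 genes passed, RRM2, CDC25B and AURKB. After median centring, which removes the shift of 0.10 in the median of all features, 5 passed, of which 2 rose, and with the lower quartile of each array as a covariate 18 passed, of which 14 rose. Under 12 alternatives CDC25B, AURKB and RRM2 each passed in 9. The fibroblast markers had a median difference of -1.21 between 7 d and 2 h. With their mean as a covariate, a setting chosen after the values were seen, none of the 40 genes and none of the 23536 features passed, and the PLK1 difference became -0.09. That mean lay at 7.93 to 8.78 on the 7 d arrays and at 9.045 to 10.26 on the 2 h arrays, without overlap. The covariate and the time therefore run together, and this setting cannot separate them. The part of these markers' cells in the differences was not tested.

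Further genes, listed apart from the 40, were tested in the same fit. Of 39 other mitotic genes 12 rose and none fell at an adjusted p under 0.05 (limma). Of all features 4.72% were higher and 4.14% lower. Among the 12, PTTG1 (securin, which restrains the separation of sister chromatids) rose by 0.70 ± 0.08 (SE, adjusted p = 4.83e-04, limma). NUSAP1 (a spindle protein) rose by 0.69 ± 0.14 (adjusted p = 0.00789) and CKS2 (a CDK-binding protein) by 0.63 ± 0.13 (adjusted p = 0.00875). Of 34 other S phase genes none passed and 8 had an unadjusted p under 0.05, all lower. The share of all features lower at that unadjusted cut is not given here, but it includes the 4.14% past the adjusted threshold. Of 24 other G1 regulators TFDP1, the dimer partner of E2F proteins, fell by 0.78 (SE 0.16, adjusted p = 0.00690) and E2F7 fell by 0.30 (SE 0.09, adjusted p = 0.0436). Of 15 p53 targets 3 rose and 2 fell, among them the death receptor FAS, which fell by 0.74 (SE 0.15, adjusted p = 0.00811).

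The mitotic genes were also compared by line. In HS360 the median difference between 7 d and the earlier times was 0.48 over the 10 mitotic entry genes, all of them positive, against 0.15 in H9 and 0.17 in HS401 with 7 of 10 positive in each. A share of all features by line is not given. In the fit of 7 d against 2 h over the 3 lines, 15982 of all 23536 features were positive, with a median of 0.10. CCNB2 in HS360 had a mean of 8.26 over the 4 arrays at 2 h and 24 h and of 9.41 over the 2 arrays at 7 d. The same means were 7.63 and 8.77 for CDK1, 9.08 and 10.30 for TOP2A and 8.79 and 9.83 for MKI67, 3 genes that did not pass the test of 7 d against 2 h. In H9 the same means were 9.15 and 9.52 for CCNB2 and 9.34 and 9.44 for MKI67, and in HS401 they were 9.24 and 9.53 for CCNB2 and 9.47 and 9.26 for MKI67. Over the 8 replication genes HS360 was the only line with a positive median, 0.27, against -0.31 in H9 and -0.38 in HS401.

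CDKN1A ran the other way in HS360, from 10.76 and 10.71 at 2 h (normoxia and hypoxia) and 9.94 and 9.71 at 24 h to 8.45 and 9.14 at 7 d. In H9 it was 9.08 and 9.24 at 2 h and 8.94 and 10.03 at 7 d, and in HS401 it was 10.01 and 9.76 at 2 h and 9.38 and 9.71 at 7 d. The 2 HS360 arrays at 2 h also held the highest fibroblast marker sums of all 18 arrays, 27032 and 24066, and the part of these cells in the values was not tested. In an F test of line by time, added after the values were seen and with 6 residual degrees of freedom, no gene of the 40 passed the adjusted threshold, CDKN1A came nearest (adjusted p = 0.104, limma), and 18 of the 40 had an unadjusted p under 0.05, where 12.4% of all features did.

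**Figure D4:**
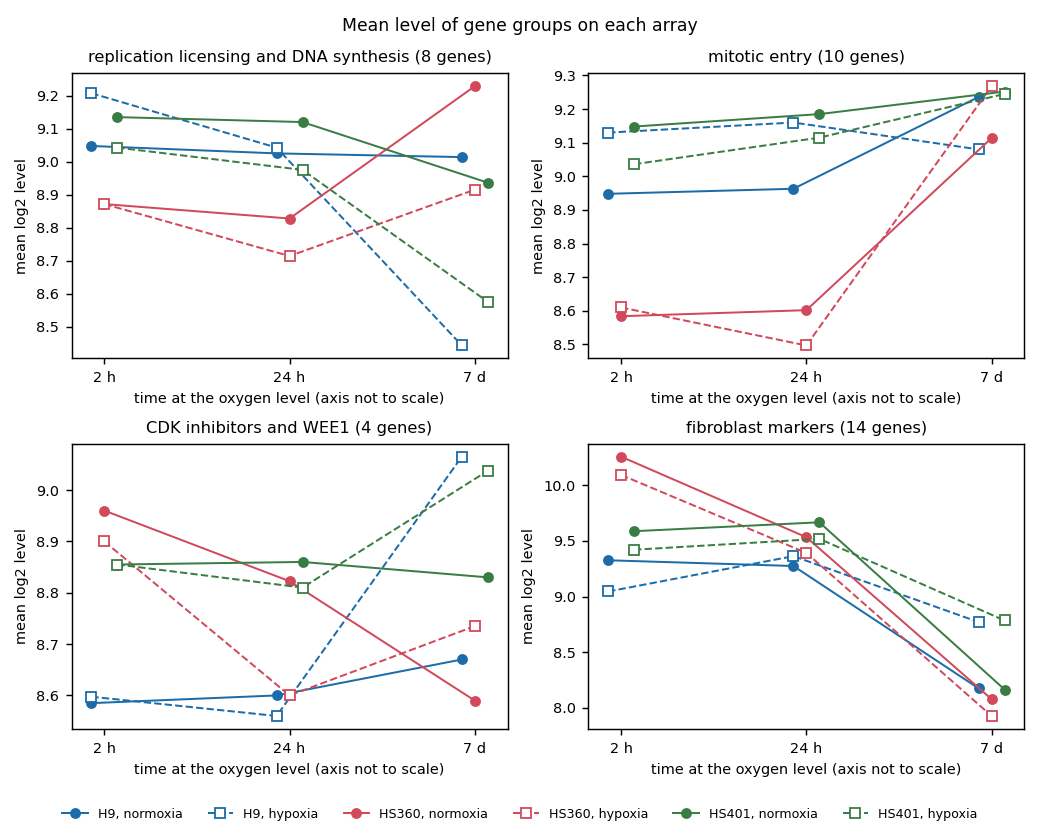
Mean log2 level of the genes of replication licensing and DNA synthesis, of mitotic entry, of CDK inhibitors and WEE1 and of the fibroblast markers on each array, by time, with 1 colour for each line, filled circles for normoxia and open squares for hypoxia. Mitotic entry starts at 8.58 and 8.61 in HS360 and lies within 9.08 to 9.27 in all lines at 7 d, replication genes are lower in hypoxia than in normoxia at 7 d in each line, and fibroblast markers lie lower at 7 d than at 24 h in each line.

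The last comparison was between the lines over all conditions, with 6 arrays of each. Since each line is 1 derivation, these tests concern the cultures of these lines. HS360 and HS401 differed in 14 of the 40 genes at an adjusted p under 0.05 (limma; 13.4% of all features), H9 and HS360 in 5 (3.34%) and H9 and HS401 in 4 (10.1%). Of the 14, 12 were lower in HS360 (7.66% of all features) and 2 higher (5.71%), the 12 with them 4 mitotic entry genes (CCNA2, CCNB1, CCNB2 and FOXM1), 2 spindle genes (BUB1 and CDC20) and TOP2A.

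CCND2 (cyclin D2) set HS401 apart. It ranged from 11.01 to 11.42 in HS401 (median 11.36, n = 6), from 10.45 to 10.81 in H9 (median 10.65) and from 10.28 to 10.64 in HS360 (median 10.36). HS401 did not overlap with either line. The log2 difference was -0.63 ± 0.09 for H9 minus HS401 (SE, 1.55-fold, adjusted p = 3.59e-04, limma) and -0.88 ± 0.09 for HS360 minus HS401 (1.84-fold, adjusted p = 2.39e-05), and both passed under all 12 alternatives tried for each. H9 and HS360 overlapped and differed by 0.25 ± 0.09, short of the threshold (adjusted p = 0.166).

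CDK6 ordered the lines with H9 lowest. It ranged from 7.38 to 8.36 in H9 (median 8.02), from 7.93 to 8.98 in HS360 (median 8.65) and from 8.42 to 9.05 in HS401 (median 8.80), so that H9 lay wholly below HS401. The difference was -0.82 ± 0.11 for H9 minus HS401 (SE, 1.76-fold, adjusted p = 2.38e-04, limma), past the threshold under all 12 alternatives, and -0.61 ± 0.11 for H9 minus HS360 (adjusted p = 0.00657), past it under 8 of 12. For HS360 and HS401, CDK6 did not pass.

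CDKN1B was highest and WEE1 lowest in HS401. CDKN1B ranged from 7.80 to 8.44 in HS401 (median 8.05), from 7.00 to 7.75 in H9 (median 7.53) and from 6.64 to 7.79 in HS360 (median 7.14), without overlap of HS401 with either. It differed by -0.59 ± 0.13 for H9 minus HS401 (SE, adjusted p = 0.0114, limma) and by -0.83 ± 0.13 for HS360 minus HS401 (adjusted p = 0.00118). WEE1 ranged from 8.87 to 9.06 in HS401 (median 8.98), from 9.14 to 9.44 in H9 (median 9.35) and from 9.16 to 9.44 in HS360 (median 9.31), and differed by 0.35 ± 0.07 for H9 minus HS401 (adjusted p = 0.00684) and for HS360 minus HS401 (adjusted p = 0.00713). H9 against HS401 separated fully in 1 gene higher (2.88% of all features) and 3 lower (2.8%), and HS360 against HS401 in 1 higher (2.89%) and 4 lower (3.22%), the 4 being CCND2, CDK2, CDKN1B and CCNB1.

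CCNB2 was low in HS360 at 2 h and 24 h. It was at 8.25, 8.51, 8.17 and 8.10 in HS360 at 2 h and 24 h (normoxia and hypoxia in turn) and at 9.44 and 9.37 at 7 d, while H9 ranged from 8.99 to 9.66 and HS401 from 9.11 to 9.59 over all times. The difference was 0.63 ± 0.15 for H9 minus HS360 (SE, adjusted p = 0.0303, limma) and -0.69 ± 0.15 for HS360 minus HS401 (adjusted p = 0.00736). PLK1 (0.44 ± 0.11, adjusted p = 0.0352) and CDC20 (0.39 ± 0.09, adjusted p = 0.0276) were also higher in H9 than in HS360. CCNA2 (cyclin A2) at -0.63 ± 0.13 (adjusted p = 0.00644), TOP2A at -0.60 ± 0.19 (adjusted p = 0.0488) and CCNB1 (cyclin B1) at -0.59 ± 0.13 (adjusted p = 0.0107) were lower in HS360 than in HS401. In the 7 d cultures alone, a setting chosen after the values were seen, the differing genes numbered 0 for H9 and HS360 and 2 for each pair with HS401, and TOP2A was 0.10 higher in HS360.

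CCND1 was highest in HS360, from 9.71 to 10.90 (median 10.54), with 9.54 to 10.09 in H9 (median 9.75) and 9.59 to 10.40 in HS401 (median 10.18). It was -0.62 ± 0.11 for H9 minus HS360 (SE, adjusted p = 0.00584, limma) and 0.35 ± 0.11 for HS360 minus HS401 (adjusted p = 0.0477). All 3 ranges overlapped.

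**Figure D5:**
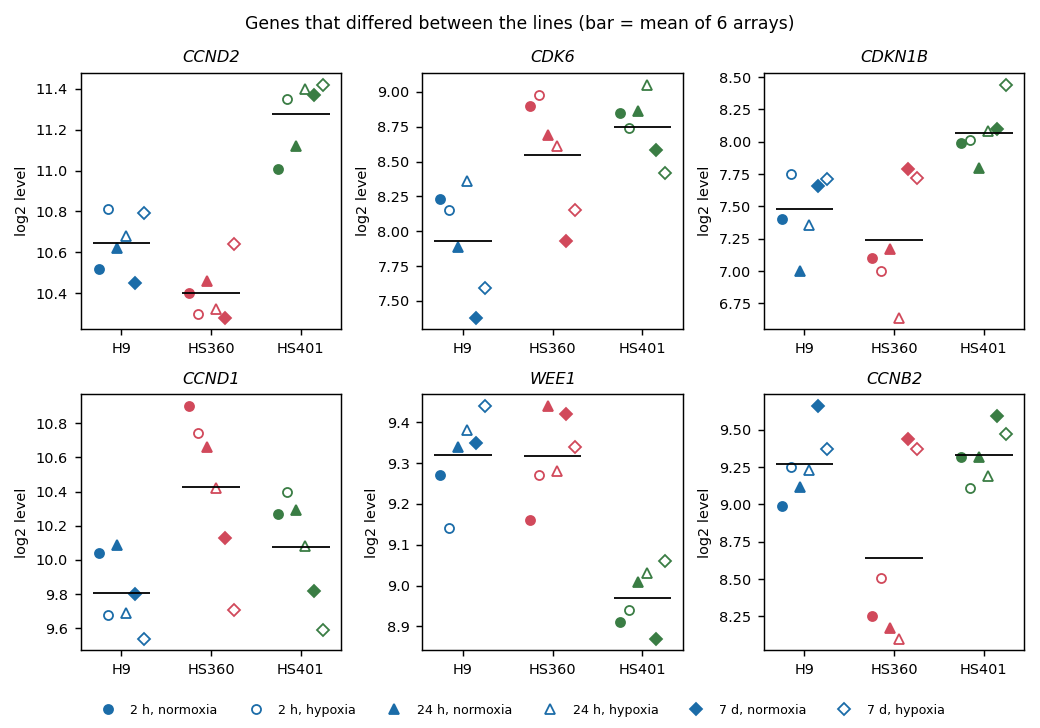
Log2 level of CCND2, CDK6, CDKN1B, CCND1, WEE1 and CCNB2 in the 6 cultures of each line, with the shape for time, filled symbols for normoxia, open symbols for hypoxia and a bar for the mean of the 6 arrays. CCND2 and CDKN1B of HS401 lie above and WEE1 of HS401 below the other lines at every time, whereas CCNB2 of HS360 is low at 2 h and 24 h only.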

How the data were processed

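RNA of 18 cultures was hybridised to Affymetrix Human Exon 1.0 ST arrays. The authors made the deposited values by robust multi-array averaging (RMA) with a custom annotation of 1 probe set per Entrez gene (software versions not given in the sources used here), and the deposited unit is linear intensity, in which log2 values lie on steps of 0.01. The log2 of these intensities was taken with no further normalization, and precision is limited by how many arrays there are. Of the 23536 features, 20727 have a gene name in the platform table. A linear model with 6 group means and the line as a block was fitted to all features and arrays with limma 3.58.1 in R 4.3.3 (residual degrees of freedom 10), with Benjamini-Hochberg adjustment over all features. The threshold was an adjusted p of 0.05. The same line in each group pairs the arrays: the deviations from group means of the normoxia and hypoxia arrays of 1 line at 1 time correlated above 0.1 in 8 of 9 pairs (-0.00534 to 0.776). Each array is 1 culture, and the block removes the constant differences between the lines. The p-values of this fit therefore rest on the spread that remains between cultures, pooled over all 18 arrays. For times compared over both oxygen levels they count the normoxia and hypoxia cultures of a line separately, although only 3 lines were used. Genes named with all values were those past the adjusted p in an oxygen or time comparison, those past the study's thresholds, and those with the largest effect in each role. For lines, up to 6 genes with the largest differences in each pair were named, and from the other lists up to 3 genes each. The further genes with an unadjusted p under 0.05 at 7 d were named after their values were seen. The 40 genes and all lists were chosen with earlier results of these data known. Alternatives were no block, a random block, each line left out, quantile normalization, median centring, a filter on low features, another variance prior, the lower quartile as a covariate, and subsets of arrays. The fibroblast marker covariate, the 7 d cultures alone and the test of line by time were chosen after seeing the data.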

Additional observations from a re-analysis of the deposited data

How the results depend on the processing

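All oxygen comparisons, and line by oxygen, kept 0 of 40 genes past the adjusted threshold under every alternative run. For 7 d against 2 h over both oxygen levels (9 genes) the count was 3 without the replicate block, 1 to 3 with 1 line left out, 5 after median centring, 18 with the lower quartile as a covariate and 0 with the fibroblast marker covariate. Over all features the same settings gave 700, 313 to 797, 1773, 3596 and 0, against 2085. For the comparisons that follow, counts over all features under the alternatives are not given. Their member counts therefore cannot be set against a shift of the whole array. In normoxia (1 gene) it was 0 without the replicate block, with a random block, with any line left out, after median centring, without the 5 arrays whose lower quartile is low and with the fibroblast covariate, and 5 with the lower quartile covariate. In hypoxia (5 genes) it was 2 without the replicate block, 0 to 1 with 1 line left out, 8 among features above the median level, 15 with the lower quartile covariate, 2 without the 5 arrays and 1 with the fibroblast covariate. For H9 against HS360 (5 genes) it was 0 without the 2 h cultures, without the 24 h cultures, in normoxia alone and at 7 d alone, 13 without the 7 d cultures, 1 without the 5 arrays and 3 with the fibroblast covariate. For H9 against HS401 (4 genes) it was 2 without any 1 of the times, in normoxia alone and at 7 d alone, and 7 with the lower quartile covariate. For HS360 against HS401 (14 genes) it was 5 without the 2 h cultures, 2 without the 24 h cultures, 3 in normoxia alone, 2 without the 5 arrays and 2 at 7 d alone. For line by time (0 genes) it was 1 among features above the median level, 1 with a trended robust prior and 1 with the lower quartile covariate, and it could not be fitted without the 5 arrays. Settings with fewer arrays have fewer degrees of freedom by construction, and the cause of the other differences was not tested. Signs turned for MKI67 in the mean oxygen effect (-0.018 to 0.25 with 1 line left out, the lowest without H9, and -0.024 without the 5 arrays), for PLK1 (-0.088), CDKN1A (1.01) and TOP2A (-0.24) in 7 d against 2 h with the fibroblast covariate, and for TOP2A in HS360 against HS401 (0.10 at 7 d alone). No other named gene turned sign.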
